A study of Mus musculus with 2 samples.

Results

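The 10 Wnt feedback and target genes Ccnd1, Sp5, Nkd1, Znrf3, Notum, Myc, Cd44, Ephb2, Ephb3 and Tnfrsf19 were followed in single cells of the mouse colonic crypt. They were taken by symbol, and all 10 were among the 31053 genes measured. On GRCm38 (GENCODE M21) the feedback genes lie on chromosome 2 (Sp5, 70474923 to 70477729), 8 (Nkd1, 88521354 to 88594884) and 11 (Znrf3, 5276324 to 5444847, and Notum, 120653788 to 120661175). Ccnd1 lies on chromosome 7 (144929931 to 144939925), Myc on 15 (61985391 to 61990374), Cd44 on 2 (102811141 to 102901665), Ephb2 on 4 (136647539 to 136835988), Ephb3 on 16 (21204755 to 21223305) and Tnfrsf19 on 14 (60963875 to 61046490). Colonic crypts came from 4-week-old C57BL/6 mice, and their isolated cells went through the 10x Genomics platform, which tags each RNA molecule with a unique molecular identifier (UMI). The control group, written M14(f/f) in the labels, carried floxed alleles of M14, read here as Mettl14, a subunit of the enzyme that writes N6-methyladenosine on RNA. The other group, M14(f/f);Villin-Cre, called Mettl14_cKO here, carried the same alleles and a Cre recombinase driven by the Villin promoter, which is active in gut epithelial cells. Each group was 1 library, made from the pooled cells of 3 mice, so no test could be made, and every interval covers counting error only. The controls carried no Cre, so Cre itself and loss of the floxed exons cannot be told apart. Xist, an RNA made from the inactive X chromosome, was at 0.0629 UMIs per 1000000 (CPM) in the control and 338 CPM in the Mettl14_cKO library, so genotype and the sex of the mice cannot be told apart either.

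Wnt ligands bind Frizzled and LRP receptors and stabilise beta-catenin, which enters the nucleus and switches on target genes with TCF and LEF factors. In the colon this signal is strongest at the crypt base, where it maintains stem and dividing cells, and it fades towards the surface where absorptive cells mature. Several targets are brakes on the same pathway: Znrf3 removes Frizzled from the cell surface, Notum strips an essential lipid from Wnt ligands, Nkd1 acts on Dishevelled, and Sp5 is a transcription factor that limits other Wnt targets. Ccnd1 and Myc drive growth and division. Cd44 is an adhesion receptor, Ephb2 and Ephb3 are receptors that help to position cells along the crypt, and Tnfrsf19 (Troy) is a receptor known from intestinal stem cells.

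Promoter sequences were available for 6 members (RefSeq, GRCm38.p6), and the 250 bases before each start were searched on both strands for 4 forms of the TCF and LEF motif, with the letters CTTTGAA or CTTTGAT or CTTTGTA or CTTTGTT. Such a match stood in 4874 of 32851 promoters (14.8%) and in 2 of the 7 windows of these members, since Tnfrsf19 has a pair of starts. Sp5 and Tnfrsf19, the members with a match, are shown because they were also the members with the largest ratios in cycling-like cells. Cd44 and Ephb2, without one, are shown for contrast, so the genes shown were chosen with the ratios in view. Nkd1, with a cycling-like ratio of 1.41, Ephb3 and the first start of Tnfrsf19 had no match either. No sequence was available for Ccnd1, Znrf3, Notum and Myc, and a link between matches and ratios was not tested. Capitals mark the matches, and each sequence runs 5′ to 3′ on the strand of its gene. In Sp5 (chr2:70474673-70474922, + strand) the matches began 222 and 104 bases before the start. In Tnfrsf19 (chr14:61037988-61038237, - strand) the match began 202 bases before the second start, and 30 bases around it are given, since 120 bases of that window are annotated as exon. Cd44 lies at chr2:102901666-102901915 and Ephb2 at chr4:136836013-136836262, both on the - strand. A match describes letters in this window and was not tested as a binding site.
Sp5: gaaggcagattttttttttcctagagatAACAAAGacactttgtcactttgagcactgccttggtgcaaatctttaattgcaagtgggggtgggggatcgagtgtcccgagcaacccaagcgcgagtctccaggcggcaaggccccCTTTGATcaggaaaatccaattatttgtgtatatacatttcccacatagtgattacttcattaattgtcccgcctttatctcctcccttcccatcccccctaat
Tnfrsf19: ctgaatgggggATCAAAGtgacaaactaga
Cd44: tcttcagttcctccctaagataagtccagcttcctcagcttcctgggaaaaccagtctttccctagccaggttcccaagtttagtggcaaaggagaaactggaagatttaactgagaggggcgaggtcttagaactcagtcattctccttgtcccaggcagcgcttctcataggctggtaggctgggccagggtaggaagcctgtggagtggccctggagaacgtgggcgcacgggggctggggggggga
Ephb2: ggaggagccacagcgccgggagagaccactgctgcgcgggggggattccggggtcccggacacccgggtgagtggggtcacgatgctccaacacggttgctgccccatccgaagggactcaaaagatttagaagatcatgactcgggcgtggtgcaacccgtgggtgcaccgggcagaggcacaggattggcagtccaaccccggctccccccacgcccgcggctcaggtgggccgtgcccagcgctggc

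The control library held 111239295 UMIs in 10181 barcodes (median 9085) and the Mettl14_cKO library 89729527 UMIs in 9225 barcodes (median 3872). After filtering, 9083 and 7078 cells formed 26 clusters, which were named from fixed markers. Of 20 epithelial clusters, 17 drew at least 90% of their cells from 1 library, so a class was mostly made of different clusters in each group. Cycling-like cells numbered 2903 in the control (mainly clusters 2, 4 and 10) and 2636 in the Mettl14_cKO library (mainly 0 and 5). Goblet-like cells numbered 2528 (clusters 6, 7, 15 and 23) and 2624 (1, 3 and 16), and absorptive-like cells 881 (cluster 9) and 291 (cluster 17). Another 2123 control cells (24.4% of epithelial cells) and 68 Mettl14_cKO cells (1.12%) stayed unnamed. Clusters of these 3 classes with a median under 5000 UMIs per cell are called shallow, and the others deep. The shallow ones were 1, 5, 10 and 21, with medians between 1860.5 and 3144.5 UMIs per cell. Mettl14 itself was at 5.36 and 5.85 CPM in cycling-like, 4.79 and 4.33 in goblet-like and 2.30 and 3.43 in absorptive-like cells (control, then Mettl14_cKO). Which exons are floxed is not stated, so these levels do not check the deletion.

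Apart from Nkd1 and Notum, whose ratio intervals included 1, the members fell into 2 groups in cycling-like cells. Sp5, Znrf3 and Tnfrsf19 were higher in Mettl14_cKO cycling-like cells, with intervals of their ratios above 1. Ccnd1, Myc, Cd44, Ephb2 and Ephb3 were lower there, by less than 1.5-fold. Those same 5 genes were higher in the few Mettl14_cKO absorptive-like cells. A gene counts as past 1.5-fold when the ratio of its CPM, each plus 1, exceeds that fold among genes with at least 10 UMIs over both libraries in the class. By this rule 2 of 10 members were higher in cycling-like cells, against 15.9% of all 14642 genes, and 0 were lower, against 12.2%. This share is close to the background. In goblet-like cells 1 of the 9 members with enough UMIs was lower, against 12.5% of 14414 genes, and 0 were higher, against 13.9%. In absorptive-like cells 5 members had enough UMIs, and each was higher, against 22.3% of 11194 genes higher and 21.3% lower. Those 5 had between 14 and 91 UMIs in the control alone, so none of them entered through the Mettl14_cKO library. The members' median log2 ratio was -0.06, -0.01 and 1.49 in the 3 classes, and that of all genes 0.00, -0.01 and -0.04.

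**Figure D1:**
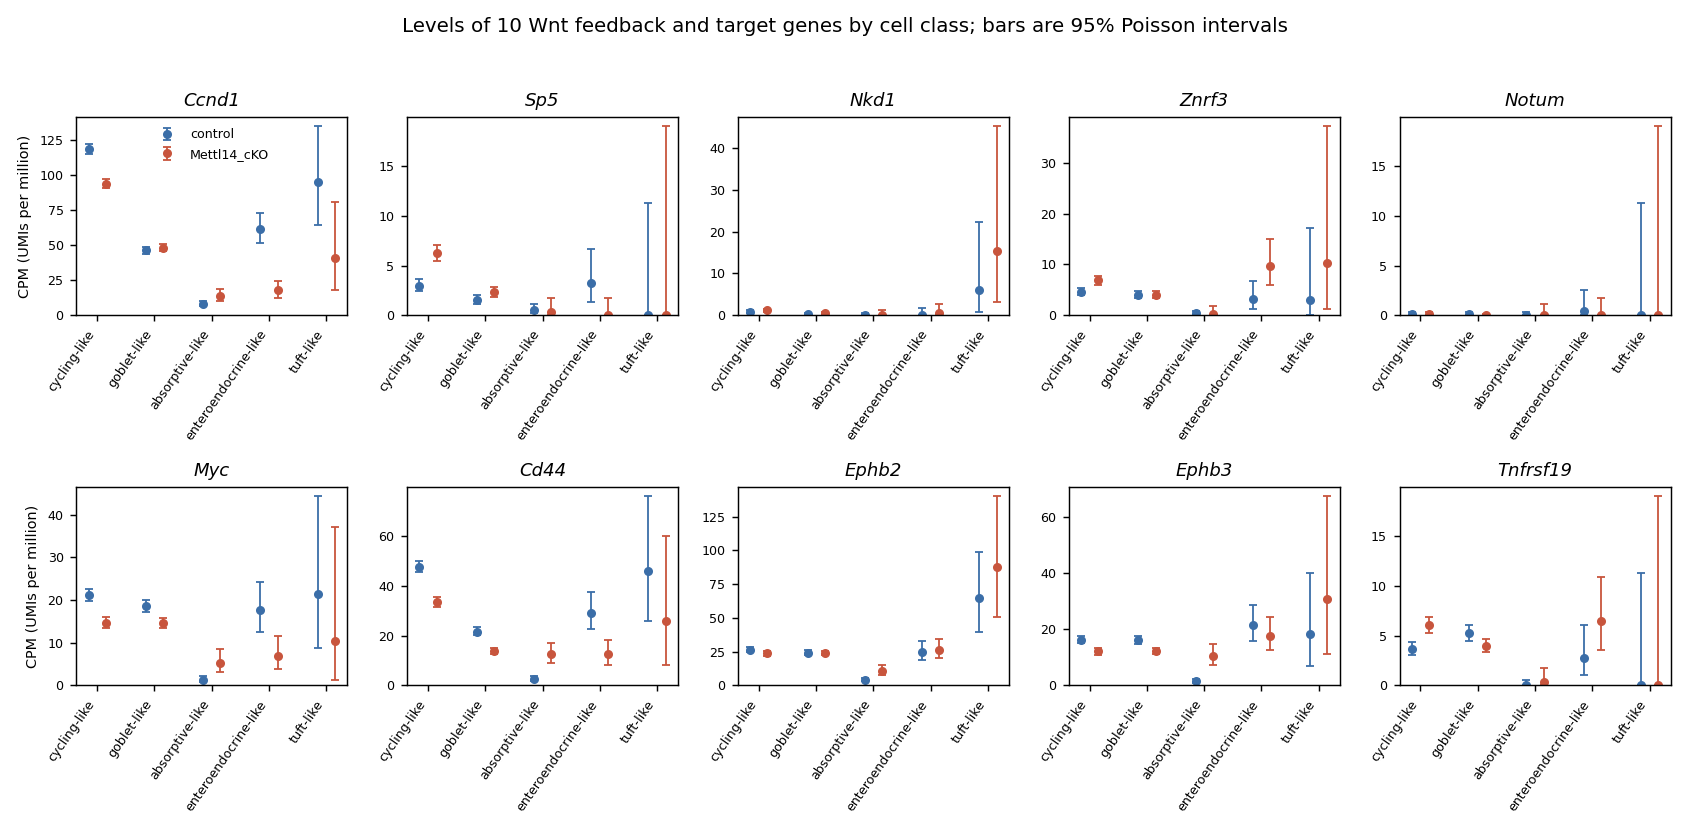
Level of each gene in CPM (y axis, own scale per panel) in 5 epithelial classes of the control (blue) and Mettl14_cKO library (red), as UMIs summed over the class with exact 95% Poisson intervals. Ccnd1, Myc and Cd44 stand highest in control cycling-like or tuft-like cells and lowest in control absorptive-like cells.

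Of the members that are brakes on the pathway, Sp5 had the largest ratio in cycling-like cells. Control cycling-like cells had 110 UMIs of Sp5, or 2.99 CPM (95% interval 2.46 to 3.60), and Mettl14_cKO ones had 225, or 6.24 CPM (5.45 to 7.11). The Mettl14_cKO level was 2.09-fold the control level (1.65 to 2.64), and the intervals of the levels did not overlap. By cluster, the deep control clusters 2 and 4 stood at 3.67 and 2.31 CPM, and the Mettl14_cKO clusters 0 and 5 at 6.64 and 4.41 CPM. Mettl14_cKO cells that fell into cluster 2 with the control cells, 53 in number, had 9.56 CPM (5.57 to 15.3), whereas the 59 that fell into cluster 4 had 2.19 CPM (0.595 to 5.59), no higher than the control cells there. In goblet-like cells Sp5 was at 1.58 and 2.33 CPM, 1.48-fold (1.04 to 2.11), and in absorptive-like cells it had 6 and 1 UMIs.

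Znrf3, the ubiquitin ligase that clears Frizzled, was at 4.65 CPM (3.98 to 5.40) in control and 6.88 CPM (6.05 to 7.79) in Mettl14_cKO cycling-like cells, 1.48-fold (1.21 to 1.81). In cluster 2 it was at 4.49 and 3.37 CPM (control, then Mettl14_cKO) and in cluster 4 at 4.47 and 6.01 CPM, with overlapping intervals. Shallow cycling-like clusters had 1.71-fold (1.24 to 2.32) the Znrf3 level of deep ones in the Mettl14_cKO library and 1.62-fold (0.906 to 2.72) in the control. The part of depth in the Znrf3 ratio was not tested. Its goblet-like levels, 4.004 and 4.03 CPM, gave a ratio of 1.01 (0.795 to 1.28). Nkd1 was sparse, with 31 and 43 UMIs in cycling-like cells (0.843 and 1.19 CPM) and 8 and 22 in goblet-like cells (0.243 and 0.551 CPM). Both of its ratios, 1.41 (0.871 to 2.32) and 2.27 (0.973 to 5.90), had intervals that reached 1. Notum had 5 and 6 UMIs in cycling-like cells, 4 and 1 in goblet-like cells and 0 in absorptive-like cells of either library. There the exact intervals for 0 UMIs reached 0.327 CPM in the control and 1.15 CPM in the Mettl14_cKO library. Its level could not be compared at this depth. Reads of Notum may also come from Notumos and Myadml2os, which overlap it on the other strand.

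Tnfrsf19, the third gene of the higher group, was at 3.64 CPM (3.05 to 4.31) in control and 6.04 CPM (5.27 to 6.90) in Mettl14_cKO cycling-like cells, 1.66-fold (1.33 to 2.07). Goblet-like cells showed the opposite, 5.22 and 3.98 CPM, a ratio of 0.763 (0.611 to 0.952). This difference depended on the clusters counted: the log2 ratio, -0.32, ranged from -1.67 to 1.70 over 20 alternative settings, and was positive only without the clusters that lacked a goblet marker among their 10 leading genes. The gene was far from even within a class. Among control goblet-like clusters it stood at 9.92 CPM in cluster 6 and 0.315 CPM in cluster 7, and among Mettl14_cKO ones at 5.27 CPM in cluster 3 and 0.376 CPM in cluster 16. Clusters 7 and 16 shared Mptx1, Clca1, Sval1, Slpi and Hoxb13 among their leading genes, and in both libraries Tnfrsf19 was low there. In control cycling-like cells it was at 5.56 CPM in cluster 2, 1.23 in cluster 4 and 0.508 in the shallow cluster 10, which had 1 UMI. Mettl14_cKO cells in clusters 2 and 4 were at 4.50 CPM (1.94 to 8.86) and 1.64 CPM (0.338 to 4.79), with intervals that included the control levels, so Tnfrsf19 was not shown to be higher where both libraries shared a cluster. The non-coding gene Gm41168 overlaps Tnfrsf19 on the other strand, and the counting strand is not stated.

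The growth genes were lower in Mettl14_cKO cycling-like cells. Ccnd1, which encodes cyclin D1, had 4354 and 3385 UMIs. Its level was 118 CPM (115 to 122) in control and 93.8 CPM (90.7 to 97.1) in Mettl14_cKO cells, a ratio of 0.793 (0.758 to 0.829). Clusters of 1 library differed by more than the libraries did, since Ccnd1 was at 99.3, 141 and 157 CPM in control clusters 2, 4 and 10. Myc, a transcription factor of growth and ribosome production, was at 21.1 CPM (19.7 to 22.7) and 14.6 CPM (13.4 to 15.9), a ratio of 0.693 (0.619 to 0.775). In goblet-like cells Ccnd1 was level, 46.3 and 48.4 CPM, with a ratio of 1.04 (0.975 to 1.12). Myc was at 18.6 and 14.5 CPM there, a ratio of 0.783 (0.698 to 0.879). Reads of Ccnd1 may include some of its neighbour LTO1, which overlaps it on the other strand.

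Cd44, the adhesion receptor, was at 47.7 CPM (45.5 to 49.997) in control and 33.4 CPM (31.6 to 35.4) in Mettl14_cKO cycling-like cells, a ratio of 0.701 (0.651 to 0.754). It was the 1 member past 1.5-fold lower in goblet-like cells, at 21.6 CPM (20.1 to 23.3) and 13.7 CPM (12.6 to 14.9), a ratio of 0.633 (0.565 to 0.709). Control goblet-like clusters spanned 7.16 CPM in cluster 7 to 36.3 CPM in cluster 6, whereas Mettl14_cKO ones lay between 12.02 and 14.1 CPM. Without the clusters that had no goblet marker among their 10 leading genes, 6 and 15 among them, the log2 ratio was 0.59 instead of -0.62. The part of the mix of clusters in the goblet ratio was not tested. Between clusters 7 and 16, a pair chosen after their values were seen, Cd44 was at 7.16 CPM (5.76 to 8.79) and 12.02 CPM (10.03 to 14.3). Unnamed cluster 11, which had 5 goblet markers among its 50 leading genes but was led by Hbb-bs, a globin gene, held 702 control cells (8.06% of epithelial cells) and 19 Mettl14_cKO cells (0.314%). With it counted as goblet-like, the log2 ratio of Cd44 was -0.72 and that of Ephb3 -0.60 instead of -0.37, past 1.5-fold lower.

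Ephb2 and Ephb3, the receptors for ephrin-B ligands, differed less between libraries than between shallow and deep cells. In cycling-like cells Ephb2 was at 26.5 and 23.7 CPM, a ratio of 0.892 (0.813 to 0.979), and Ephb3 at 16.2 and 12.1 CPM, a ratio of 0.743 (0.655 to 0.842). Goblet-like cells had 24.1 and 24.0 CPM of Ephb2 and 16.2 and 12.3 CPM of Ephb3. In control cycling-like cells Ephb2 was 2.35-fold (1.94 to 2.84) and Ephb3 3.28-fold (2.63 to 4.06) higher in the shallow than in the deep clusters. The same ratios were 2.89 and 3.79 in Mettl14_cKO cycling-like cells and 2.26 and 4.19 in Mettl14_cKO goblet-like cells. Malat1, a nuclear RNA, stood higher in the same shallow clusters, 2.79-, 2.65- and 4.43-fold, and its part in the Ephb2 and Ephb3 levels was not tested. Cd44 (1.20, 1.001 and 0.955) and Ccnd1 (1.32, 0.949 and 0.870) stayed nearer to 1. In clusters with a median of at least 5000 UMIs, the log2 ratio of Ephb3 was -0.66 in cycling-like and -0.78 in goblet-like cells, past 1.5-fold lower in both, and that of Ephb2 -0.37 and -0.19. Without cluster 0, which held most Mettl14_cKO cycling-like cells but no cycling marker among its 10 leading genes, and cluster 21, the cycling log2 ratios turned to 0.56 for Ephb2 and 0.51 for Ephb3.

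**Figure D2:**
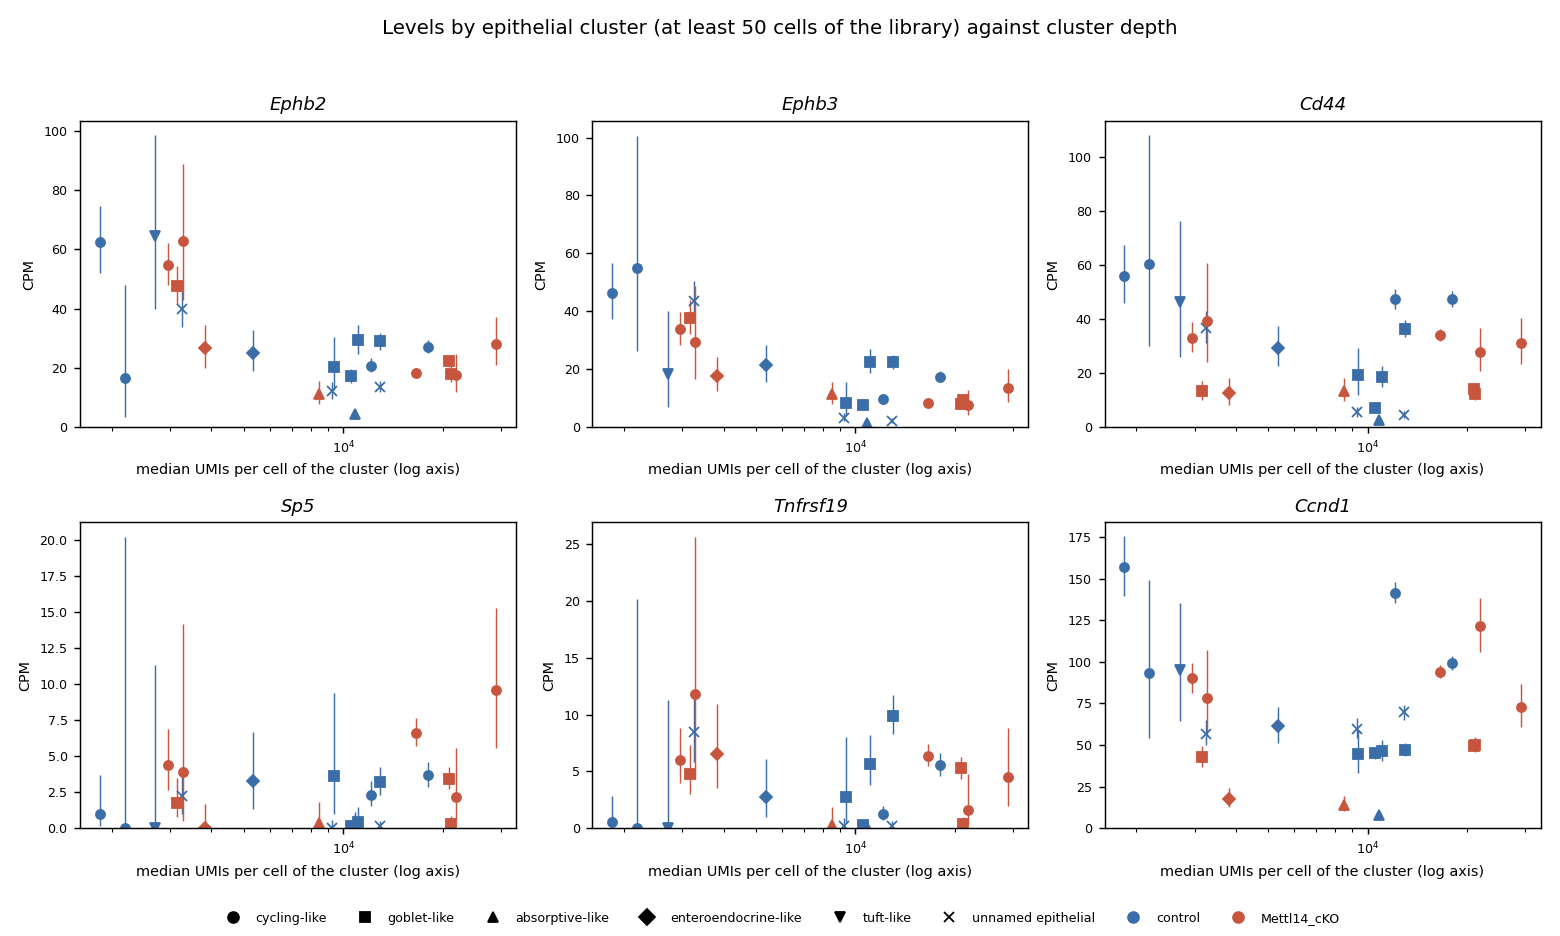
CPM of 6 members (y axis) against the median UMIs per cell of each epithelial cluster (x axis, log scale), for clusters with at least 50 cells of the library and with 95% Poisson intervals. Ephb2 and Ephb3 are highest in shallow clusters of both libraries. Ccnd1 is lowest in the absorptive-like cluster of each library. Cd44 is lowest there in the control (2.48 CPM), whereas in the Mettl14_cKO library goblet-like cluster 16 is lowest (12.02 CPM).

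Depth and the make-up of the cycling class differed along with these results. Summed goblet markers were at 29118 CPM in control and 7393 CPM in Mettl14_cKO cycling-like cells (18 of 18 markers had UMIs in each), and summed cycling markers at 4679 and 3467 CPM (24 of 24). Myeloid markers other than Cd74 were at 73.5 CPM in the control, where 7 of 13 had 0 UMIs, and 140 CPM in the Mettl14_cKO library, where each had some. Of these, S100a8 was at 0 and 52.7 CPM, Cd14 at 58.8 and 60.2 CPM and C1qa at 13.4 and 2.08 CPM (control, then Mettl14_cKO). Cd74 went the other way, 648 and 352 CPM, and all 14 myeloid markers summed to 721 and 492 CPM. The part of these markers in the members' ratios was not tested. Cells of at least 5000 UMIs gave log2 ratios of 0.91 for Sp5, 0.54 for Tnfrsf19, -0.53 for Myc, -0.51 for Cd44 and -0.30 for Ccnd1 in cycling-like cells, near those of all cells. Tnfrsf19 then lay within 1.5-fold. Over the 20 alternative settings, Sp5 and Tnfrsf19 were higher and Ccnd1, Myc and Cd44 lower in cycling-like cells each time, whereas Ephb2 and Ephb3 changed direction in 6 and 4 of them.

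**Figure D3:**
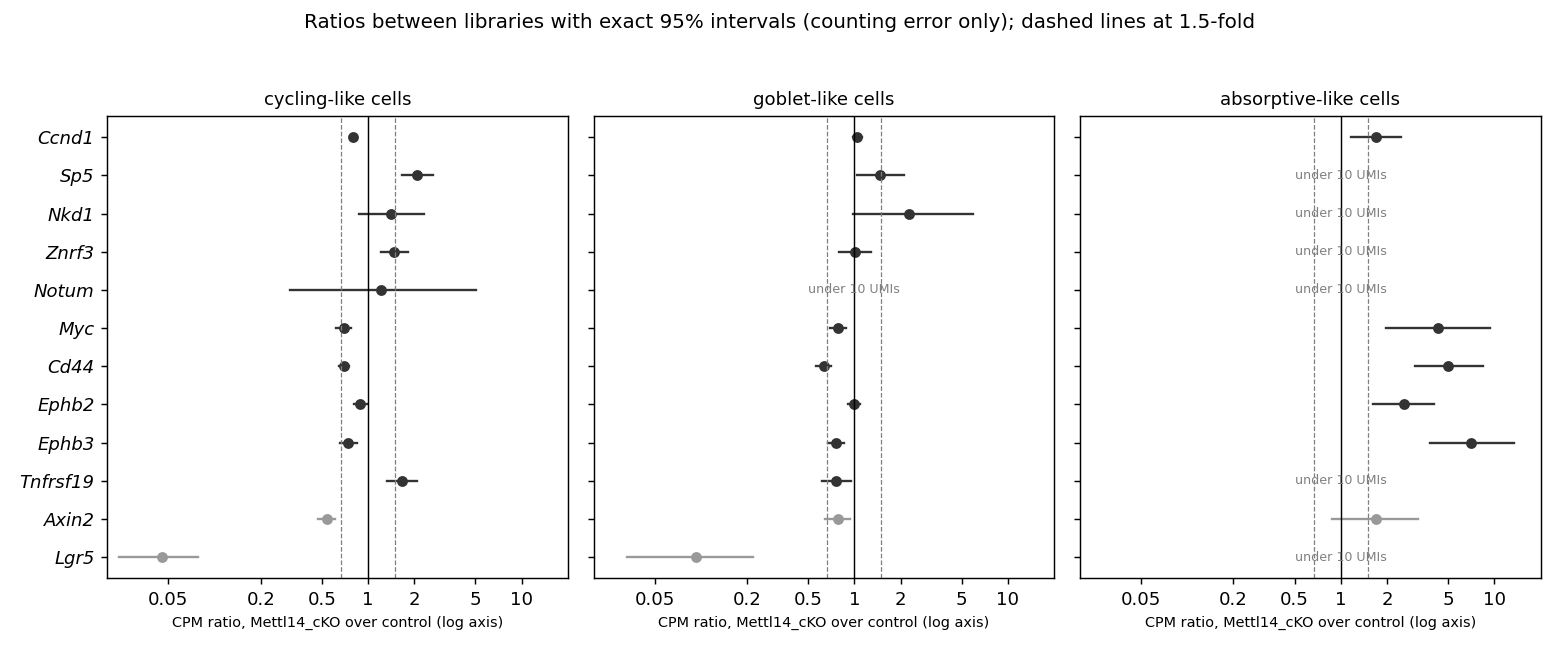
Ratio of CPM, Mettl14_cKO over control (x axis, log scale), with exact 95% intervals for the 10 members and, in grey, Axin2 and Lgr5; dashed lines mark 1.5-fold. Sp5 (2.09) and Tnfrsf19 (1.66) lie right of 1.5 in cycling-like cells, and the 5 members with enough UMIs lie right of 1.5 in absorptive-like cells.

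In absorptive-like cells the members were low in the control and higher in the Mettl14_cKO library. Ephb3 had 17 UMIs in 881 control cells and 34 in 291 Mettl14_cKO cells, or 1.51 CPM (0.878 to 2.41) and 10.6 CPM (7.34 to 14.8), 7.04-fold (3.82 to 13.4). Cd44 was at 2.48 CPM (1.65 to 3.59) and 12.5 CPM (8.91 to 17.0), 5.03-fold (3.02 to 8.46). Myc had 14 and 17 UMIs, 1.24 and 5.30 CPM, 4.27-fold (1.98 to 9.36). For Ephb3 and Cd44 these levels were close to those of goblet-like cells of the same library, 12.3 and 13.7 CPM. Ephb2 was at 4.25 and 10.9 CPM, 2.56-fold (1.61 to 4.05), and Ccnd1 at 8.06 and 13.7 CPM, 1.70-fold (1.16 to 2.46). Mettl14_cKO goblet-like cells had more of the remaining 3, 14.5 CPM of Myc, 24.0 CPM of Ephb2 and 48.4 CPM of Ccnd1. Sp5, Nkd1, Znrf3 and Tnfrsf19 had at most 6 UMIs in either library.

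Shares of cells with a UMI said less. After each cell was thinned to 1700 UMIs, 29 of 851 control absorptive-like cells (3.41%, exact 95% interval 2.29 to 4.86) and 22 of 278 Mettl14_cKO cells (7.91%, 5.03 to 11.7) had at least 1 UMI of any member. Cycling-like cells had 33.4% and 28.9%, and goblet-like cells 20.8% and 19.1%. T or NK-like cells, which had Cd44 and Myc UMIs of their own, had 7.74% and 15.2%, so the absorptive shares were not above theirs. For Ephb2, 5 of 851 control (0.588%) and 5 of 278 Mettl14_cKO absorptive-like cells (1.80%) had a UMI, while T or NK-like cells, which should lack it, had 0 of 168 and 1 of 250. A count of 0 of 168 allows a share of up to 2.17%. The exact intervals of the absorptive shares of Ephb2 (0.191 to 1.37% and 0.587 to 4.15%) overlapped those of T or NK-like cells (0 to 2.17% and 0.0101 to 2.21%), so no difference from this background was detectable at this depth. The shares in cycling-like cells, 5.09% (4.25 to 6.03) and 5.22% (4.35 to 6.20), lay above it. Ephb3 had a UMI in 3 of 851 control (0.353%) and 5 of 278 Mettl14_cKO absorptive-like cells (1.80%). In T or NK-like cells these counts were 3 of 168 (1.79%) and 1 of 250 (0.4%), and the intervals again overlapped in each library. Before thinning, Ephb2 UMIs stood in 4.65% and 10.7% of absorptive-like cells at median depths of 10844 and 8296 UMIs, and in 0% and 1.52% of T or NK-like cells at 1624.5 and 1939.5 UMIs.

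Other features moved with the absorptive ratios, and their part in them was not tested. Summed absorptive markers were at 100350 CPM in control and 37084 CPM in Mettl14_cKO absorptive-like cells (19 of 19 with UMIs in each). Malat1 was at 7806 and 21167 CPM and Krt20, a keratin of surface cells, at 1747 and 1021 CPM. Goblet markers summed to 1803 and 2440 CPM, and cycling markers to 264 and 276 CPM. Enteroendocrine markers summed to 113 and 496 CPM (11 of 14 with UMIs in each) and stem markers to 164 and 240 CPM (11 and 9 of 12). Myeloid markers other than Cd74 summed to 19.1 CPM, with 9 of 13 at 0, and 534 CPM, with C1qc, Adgre1 and Csf3r at 0. Of the latter, S100a8 made up 474 CPM, beside 16.2 CPM of S100a9 and 0.935 CPM of Lyz2. B or plasma markers were at 0.266 and 17.5 CPM, and T or NK markers at 7.44 and 6.24 CPM, with Cd3e at 0 in both. The Mettl14_cKO library also held 436 myeloid-like cells, in which Cd44 was at 233 CPM, Ephb3 at 0.663 CPM (0.0168 to 3.70) and Ephb2 at 5.31 CPM (2.29 to 10.5). Ephb2 was at 6.98 CPM (2.81 to 14.4) in Mettl14_cKO T or NK-like cells. Both Ephb2 intervals overlapped that of absorptive-like cells in that library, 10.9 CPM (7.60 to 15.2). For Ephb3, T or NK-like cells had 9.75 CPM (3.92 to 20.1) in the control and 2.99 CPM (0.617 to 8.75) in the Mettl14_cKO library. The control value lay above that of control absorptive-like cells, 1.51 CPM (0.878 to 2.41). The Mettl14_cKO interval, from 3 UMIs, overlapped that of absorptive-like cells there, 10.6 CPM (7.34 to 14.8) from 34 UMIs. Overlap of such intervals does not show equal levels, and ratios between these classes were not worked out.

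How much of the absorptive lineage is counted also bears on these ratios. Unnamed clusters 8 and 13, whose absorptive markers were too few for a name, held 1421 control cells (16.3% of epithelial cells) and 49 Mettl14_cKO cells (0.809%). With them counted as absorptive-like, the log2 ratio of Ephb3 was 1.64 instead of 2.21 and that of Cd44 1.25 instead of 1.95. Myc and Ephb2 were then at 0.27 and 0.28, and Ccnd1 turned to -0.97. Ccnd1 was at 69.6 CPM in control cluster 8 and 59.9 CPM in cluster 13, beside 8.07 CPM in cluster 9. Ephb3 and Cd44 were past 1.5-fold higher in each of the 19 alternative settings that gave absorptive-like cells in both libraries.

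Absorptive-like cells of the control had the lowest epithelial level of Ccnd1, Znrf3, Myc, Cd44, Ephb2 and Ephb3. For each of these 6 the interval lay below that of the next epithelial class, goblet-like cells for Ccnd1 and the unnamed cells for the others. In the Mettl14_cKO library absorptive-like cells had the lowest level of Ccnd1, Znrf3, Myc and Ephb2, but these intervals overlapped those of the next epithelial class. Ccnd1 stood highest in cycling-like cells, 118 CPM, with tuft-like cells (95.2 CPM) next and within counting error. Ephb2 was highest in tuft-like cells of both libraries, 64.5 and 87.5 CPM, above the next class. Their medians were 2709 and 1512 UMIs per cell, and the shallow control cluster 10 of cycling-like cells had 62.4 CPM (51.9 to 74.5). The part of depth was not tested. Cycling-like, goblet-like and enteroendocrine-like cells did not differ in Ephb2 beyond counting error in either library. Across control clusters, Cd44 followed the mean of the other 9 members most closely (r = 0.93 over 14 clusters) and Notum least (r = 0.11). Across the 10 Mettl14_cKO clusters Nkd1 (r = 0.79) and Znrf3 (r = 0.77) led, and Ephb3 was lowest (r = 0.44) of those with a value. Clusters of 1 library share that library's depth and free RNA, so these r values are descriptions.

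By the same measure, the genes most like the members' mean pattern were Chchd6, Ptbp1, Sord, Syne4 and Aqp1 in the control (r = 0.94 to 0.96 over 14 clusters). In the Mettl14_cKO library they were Trim65, Cntrl, Eefsec, Aggf1 and Swap70 (r = 0.95 to 0.96 over 10 clusters). The lists shared no gene. They are short and rest on 14 and 10 clusters, and the overlap expected by chance was not worked out. No difference between the libraries can therefore be read from this.

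The rest of the Wnt pathway, 117 further genes in 8 lists, did not differ as 1 block. In cycling-like cells 16 of the 86 with enough UMIs were lower and 10 higher, with a median log2 ratio of -0.20. In goblet-like cells 18 of 87 were lower and 9 higher (median -0.13), and in absorptive-like cells 11 of 68 were lower and 20 higher (median 0.18). Background shares are those given above for each class.

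Upstream of the members, 4 R-spondin genes had too few UMIs in each class. Of the ligand and secretion genes, 8 of 19 had enough UMIs in cycling-like cells, and Wnt6 alone was past 1.5-fold, higher, with 4 and 42 UMIs (39 in Mettl14_cKO goblet-like cells against 4). Wnt11 went the other way in counts, 23 and 4 UMIs, Wnt9a had 3 and 17, and Wnt5a had 27 and 13 in cycling-like but 3 and 25 in goblet-like cells. Among receptors, 6 of 16 were lower and 1 higher in cycling-like cells, and 5 lower and 2 higher in goblet-like cells. Of all genes, 12.2% were lower and 15.9% higher in cycling-like cells, and 12.5% and 13.9% in goblet-like cells. Lgr5, the R-spondin receptor of stem cells, had 293 and 13 UMIs in cycling-like cells, 22.1-fold lower (12.7 to 42.0) in the Mettl14_cKO library, and 53 and 6 in goblet-like cells. That fold compares mostly different clusters, and the log2 ratio in cycling-like cells, -2.72, ranged from -4.13 to -0.79 over the 20 alternatives. In the shared cluster 2 Lgr5 was at 7.87 CPM in control and 1.69 CPM (0.348 to 4.93, 3 UMIs) in Mettl14_cKO cells. In cluster 4 it was at 7.78 CPM in control and 4.37 CPM (1.89 to 8.61, 8 UMIs) in Mettl14_cKO cells. The latter interval included the control level, so Lgr5 was not shown to be lower in cluster 4. Fzd9 was at 7.52 and 0.626 CPM in goblet-like cells, whereas Fzd6 (3.12 and 6.33 CPM) and Fzd4 (3.31 and 8.06 CPM) were higher there.

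Of 4 secreted and membrane inhibitors with enough UMIs in cycling-like cells, 1 was lower and 0 higher. Of all genes, 12.2% were lower and 15.9% higher there. Rnf43, the partner of Znrf3 in clearing Frizzled, was at 12.1 and 5.99 CPM in cycling-like cells (log2 ratio -0.91), whereas Znrf3 had 0.48. The coreceptors of Dickkopf inhibitors, Kremen2 and Kremen1, had log2 ratios of -0.40 and 0.09, and Sfrp1 had 21 and 7 UMIs. Axin2, the scaffold of the beta-catenin destruction complex and a feedback target itself, was at 18.0 and 9.70 CPM, a ratio of 0.538 (0.472 to 0.614). In goblet-like cells Axin2 was at 7.04 and 5.48 CPM. Axin2 and Lgr5 thus stood lower in the cycling-like cells in which Sp5 and Tnfrsf19 stood higher.

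Of 17 cytoplasmic genes, 3 were lower in cycling-like cells and 0 higher, against 12.2% and 15.9% of all genes. Amer1, a membrane anchor for APC, was at 9.68 and 4.35 CPM there and had 28 and 0 UMIs in absorptive-like cells, where 0 UMIs allow up to 1.15 CPM. Frat2, a GSK3-binding protein, was at 84.3 and 34.3 CPM in goblet-like cells. Csnk1e and Axin1 had log2 ratios of 1.06 and 0.83 in absorptive-like cells, past 1.5-fold, and 0.30 and 0.08 in cycling-like cells. Among nuclear factors, 4 of 14 were higher in cycling-like cells and 0 lower, against 15.9% and 12.2% of all genes. Bcl9l, a cofactor of beta-catenin, was past 1.5-fold higher in each class, with log2 ratios of 0.87, 0.91 and 2.25. The Groucho corepressors split: Tle3 had log2 ratios of 1.01, 0.40 and 1.09 (cycling-like, goblet-like, absorptive-like), Tle4 -0.41, -1.31 and -1.08, and Tle2 -0.53 and -1.17 in the first pair.

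The other target genes were mixed as well, with 9 of 28 lower and 4 higher in cycling-like cells. Of all genes, 12.2% were lower and 15.9% higher there. Sox4, a transcription factor of progenitors, was at 97.0 and 169 CPM in cycling-like, 29.8 and 75.0 CPM in goblet-like and 6.65 and 46.8 CPM in absorptive-like cells. Bambi, a decoy receptor for BMP and activin, was at 26.7 and 81.3 CPM in cycling-like cells. Fosl1, an AP-1 factor, was at 5.76 and 1.996 CPM in cycling-like and 11.2 and 1.63 CPM in goblet-like cells. In absorptive-like cells 12 of 24 targets, besides the 5 members, were higher and 4 lower, against 22.3% and 21.3% of all genes. The ephrin-B ligands that bind Ephb2 and Ephb3 were not past 1.5-fold higher in any of the 3 classes: Efnb2 was at 62.4 and 37.1 CPM in absorptive-like and 24.3 and 9.11 CPM in goblet-like cells. Efnb1 had log2 ratios of 0.25, -0.29 and -0.39 in the 3 classes, and Efnb3 had 27 and 25 UMIs in cycling-like cells.

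**Figure D4:**
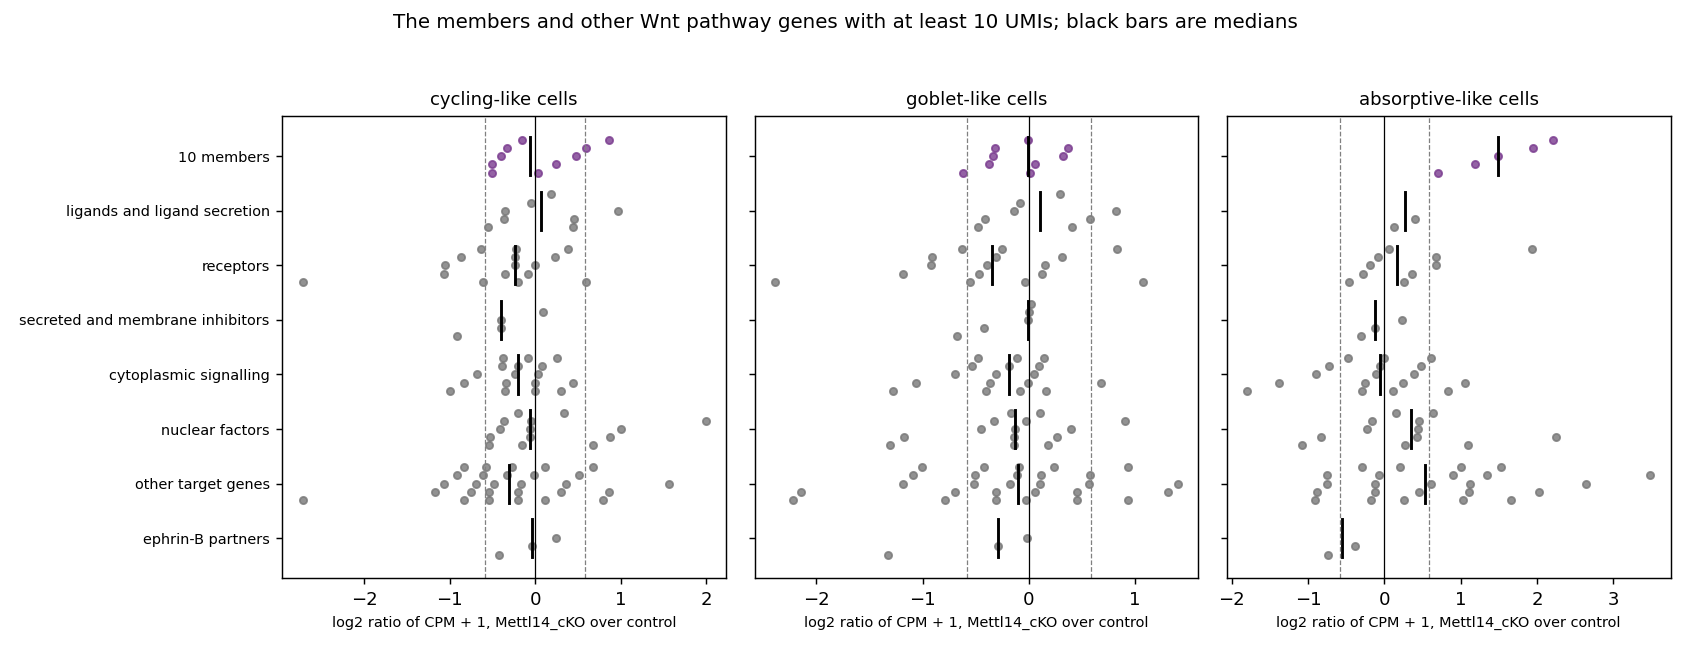
Log2 ratio of CPM plus 1, Mettl14_cKO over control (x axis), of each member (purple) and of other Wnt pathway genes (grey) with at least 10 UMIs, by list (y axis); black bars are medians and dashed lines 1.5-fold. In absorptive-like cells the members' median is 1.49 and that of the other target genes 0.53, whereas in cycling-like cells they are -0.06 and -0.30.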

How the data were processed

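The authors deposited raw UMI counts for each gene in each barcode. They used Cell Ranger, which the submitters' processing notes give as 3.0.0 (beside Seurat 3) and the file headers as 3.1.0. Build and counting strand: not given in the sources used here. Coordinates are GENCODE M21 (GRCm38), which holds 99.6% of the gene IDs. A filter of 500 detected genes and 25% mitochondrial UMIs left 9154 and 7125 cells, and 71 and 47 likely doublets (Scrublet score 0.25 or more) were taken out. The automatic threshold marked 0 and 0 cells, so that score was chosen with the data in view. The libraries shared 33 barcodes.

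Each cell was scaled to 10000 counts on a log scale, and 2000 variable genes, 30 principal components, 15 neighbours and Leiden clustering at resolution 1 were used with no integration (scanpy 1.11.5, leidenalg 0.10.2, scikit-learn 1.9.0, numpy 2.4.6, scipy 1.17.1, pandas 2.3.3, matplotlib 3.10.9, Python 3.11.15). The members and other Wnt pathway genes were left out of the variable genes. A cluster was named when at least 3 fixed markers of 1 of 13 classes stood among its 50 leading genes, no other class had more among its 10 leading genes and, for a cluster with a median under 1/3 of its library's, 1 stood among those 10. Unnamed clusters counted as epithelial where Epcam reached 50% of the named ones. These rules were set after the data had been seen.

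UMIs were summed over a class and scaled to its total (CPM) with exact Poisson intervals; ratios have exact conditional intervals and shares Clopper-Pearson intervals, all at 95%. Log2 ratios use a pseudocount of 1 CPM, which understates the change of low genes. Of these, only the ratio intervals were checked on simulated data. The simulated counts followed the Poisson sampling that these intervals assume, with no variation between cells, clusters or mice, so the check covers the calculation only. With 1 library per genotype there was no test. Members and lists were chosen with earlier results of these data known. Named were all members, Lgr5, Axin2 and Mettl14. From each pathway list the 2 highest and 2 lowest by mean log2 ratio among genes with at least 30 UMIs were named, and in each library the 5 genes most like the members by Pearson r over clusters of at least 50 cells. There were 14 alternatives listed at the start and 6 added after the data were seen.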

Additional observations from a re-analysis of the deposited data

Results flagged for a closer look

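Several members differed between the libraries in opposite directions in different classes; the difference between classes was not tested, since each genotype had 1 library. Log2 ratios (Mettl14_cKO over control) were negative in cycling-like and positive in absorptive-like cells for Ccnd1 (-0.33 and 0.70) and Ephb2 (-0.16 and 1.18). Myc was at -0.50 in cycling-like, -0.33 in goblet-like and 1.49 in absorptive-like cells. Cd44 had -0.50, -0.62 and 1.95, and Ephb3 -0.40, -0.37 and 2.21 in the same order. Tnfrsf19 was positive in cycling-like (0.60) and negative in goblet-like cells (-0.32), where it reached 1.70 without the clusters lacking a marker.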

How the results depend on the processing

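No paired analysis was possible because each genotype had 1 library and the labels give no shared replicate numbers. Counts of members past 1.5-fold moved as follows, and the cause was not tested. Higher in absorptive-like cells, instead of 5 of 5 with enough UMIs (all genes 22.3%), were 3 of 7 (lenient filter, 200 genes, 50% mitochondrial UMIs; 20.2%), 9 of 9 (strict filter, 1000 genes, 15%; 31.3%), 3 of 8 (resolution 0.5; 16.9%), 9 of 9 (resolution 2; 37.0%), 2 of 3 (thinned to 1700 UMIs; 22.8%), 2 of 5 (pseudocount 10; 10.5%) and 2 of 8 (unnamed absorptive-marked clusters included; 14.96%). Lower there were 1 of 8 (resolution 0.5; 23.7%) and 2 of 8 (unnamed clusters included; 24.99%), instead of 0. Higher in cycling-like cells, 2 in the main analysis, were 1 (members among variable genes, thinned, clusters of at least 5000 median UMIs, and cells of at least 5000 UMIs) or 0 (pseudocount 10), and 3 with the lenient filter, without doublet removal and at resolution 2. Lower in cycling-like cells was 1 instead of 0 at resolution 0.5, with members among variable genes, with clusters of at least 5000 median UMIs and without clusters lacking a marker. Lower in goblet-like cells, 1 in the main analysis, were 2 (strict filter, members among variable genes, thinned, clusters of at least 5000 median UMIs, unnamed goblet-marked cluster included), 3 (clusters with at least 20 cells of each library) or 0 (pseudocount 10, without clusters lacking a marker). Higher in goblet-like cells, 0 in the main analysis, were 1 (mean over cells, pseudocount 0.1) or 3 (without clusters lacking a marker). In the main analysis 12.2% of all genes were lower and 15.9% higher in cycling-like cells, and 12.5% and 13.9% in goblet-like cells. Shares under the other settings are not given here for these classes, so these counts are not read against a background.

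Ccnd1 in absorptive-like cells reversed to -0.30 (lenient filter), -0.67 (resolution 0.5) and -0.97 (unnamed clusters included), and Cd44 in goblet-like cells to 0.59 (without clusters lacking a marker). In goblet-like cells Tnfrsf19, Ephb3 and Sp5 also changed direction in 1, 3 and 2 of 20 settings, reaching 1.70, 0.59 and -0.88. Ephb2, Znrf3 and Ccnd1, with small main log2 ratios there (-0.01, 0.01 and 0.06), kept their direction in only 13, 14 and 15 of 20 settings. Nkd1 kept its direction in 19. Clusters with 20 cells of each library gave no absorptive value. In cycling-like cells Sp5 ranged from 0.32 to 1.81 and Tnfrsf19 from 0.23 to 1.74 (log2). Genes under 10 UMIs, among them Notum in most classes, are limited by depth.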

Other observations

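Enteroendocrine-like cells, 224 of the control and 392 of the Mettl14_cKO library, formed cluster 12 in both libraries. Ccnd1 was at 61.3 CPM in control and 17.7 CPM in Mettl14_cKO cells there, 3.47-fold lower (2.40 to 5.11). Myc was at 17.6 and 6.98 CPM, 2.53-fold lower (1.36 to 4.95), and Cd44 at 29.3 and 12.6 CPM, 2.33-fold lower (1.46 to 3.80). Znrf3 had 7 and 21 UMIs, 3.01-fold higher (1.23 to 8.37), Tnfrsf19 6 and 14, and Sp5 7 and 0. Ephb2 was at 25.1 and 26.5 CPM and Ephb3 at 21.4 and 17.7 CPM. Control cells were deeper, with medians of 5355 and 3819 UMIs, summed goblet markers were at 21510 and 3809 CPM and summed cycling markers at 2558 and 555 CPM. The part of depth and of these markers was not tested.

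Tuft-like cells were few, 53 and 43. Nkd1 had 2 and 3 UMIs there, 6.14 and 15.4 CPM, beside 0.843 and 1.19 CPM in cycling-like cells. Outside the epithelium, Myc was at 61.2 CPM (43.1 to 84.4) in the 175 B or plasma-like cells of the Mettl14_cKO library, and Cd44 at 387 CPM in cluster 20, which was led by S100a9, Retnlg and S100a8.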
